A study of Homo sapiens with 6 samples.

Results

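The 78 human genes whose symbols begin with MRPL or MRPS and a number, the nuclear genes of mitochondrial ribosomal proteins, were followed in a human osteosarcoma line, U-2 OS. The family was chosen with earlier results of these data known. Its genes were taken by name alone among the protein-coding genes of the transcript tables, without readthrough genes. They make up 78 of the 21447 genes quantified. Of these, 49 are named MRPL and 29 MRPS. Unsynchronized cells grown with serum were left untreated or received 4 Gy of ionizing radiation (IR) and were collected 24 h later, with 3 libraries of bulk RNA in each group. The labels name no transgene or deletion in the line, and the study describes the libraries of a group as independent samples. The labels do not say whether these were separate cultures or batches of cells, and the p-values below measure the spread between these libraries. In bulk RNA, fewer cells of a kind and less RNA per cell cannot be told apart.

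The mitochondrial ribosome (mitoribosome) translates the few mRNAs encoded by mitochondrial DNA, all of which code for subunits of oxidative phosphorylation. Its ribosomal RNAs are transcribed in the organelle, but its proteins are encoded in the nucleus, made in the cytosol and imported. Some of the proteins have a bacterial homologue and others are specific to mitochondria, and the names do not always give the subunit. MRPS30 and MRPS18A, for example, sit in the large subunit, and MRPS36 (also called KGD4) belongs to the 2-oxoglutarate dehydrogenase complex and is not a ribosomal subunit. Sorted by subunit, 51 of the genes code for the large subunit (30 with a bacterial homologue and 21 mitochondria-specific) and 26 for the small subunit (16 and 10). They are spread over 21 chromosomes.

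The libraries held 18573309 to 22953834 estimated counts, apart from IR replicate 3 with 45308792. This library also stood apart from the other IR libraries, with a chi-square per gene of 29.1 and 32.3 against IR replicates 1 and 2, where the other pairs within a group had 3.46 to 9.22, and its values have the smallest counting error. The osteoblast lineage genes COL1A1 and SPARC were high in all 6 libraries (2683 to 3509 and 1609 to 1694 CPM, counts scaled to a common library size by TMM), whereas SP7, the osteoblast factor osterix, was listed at 0 in all of them. The list of such markers also held RUNX2, ALPL and COL1A2. The 5 tested genes of the list had a median of only 4.29 TPM, below the 15.3 TPM of all tested genes. After IR, 1 of the 5 was called higher and 1 lower by edgeR (20% each, where 15.5% and 14.5% of all tested genes were). Their log2 fold changes ran from -0.36 to 1.09. Of the markers of other cell types, ALB and CD3E were listed at 0 in every library, PECAM1 and PTPRC stayed at or below 0.598 and 1.76 CPM, and EPCAM lay between 8.55 and 10.6 CPM. CDH1, the epithelial cadherin, was low but rose after IR, from 1.87, 2.01 and 2.35 CPM to 3.39, 3.43 and 2.77 CPM (log2 fold change 0.61, standard error 0.21, adjusted p = 0.0465 by edgeR). The call of CDH1 was lost with each library's trend against GC content removed and with an offset for effective transcript lengths. The part of other cells in the results below was not tested.

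All 78 genes were expressed. The lowest estimated count of any of them in any library was 189, and all 78 passed the filter on low counts. On the TPM scale, which allows for transcript length, their median was 75, against 15.3 for all 14323 tested genes, and 77 of the 78 lay above that median. The levels spanned a ratio of 50.2 between the highest and the lowest gene, but 57 genes lay between 0.5 and 2 times the median of the group. The 51 genes of the large subunit had a median of 73.9 TPM and the 26 of the small subunit one of 79.1 TPM.

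**Figure D1:**
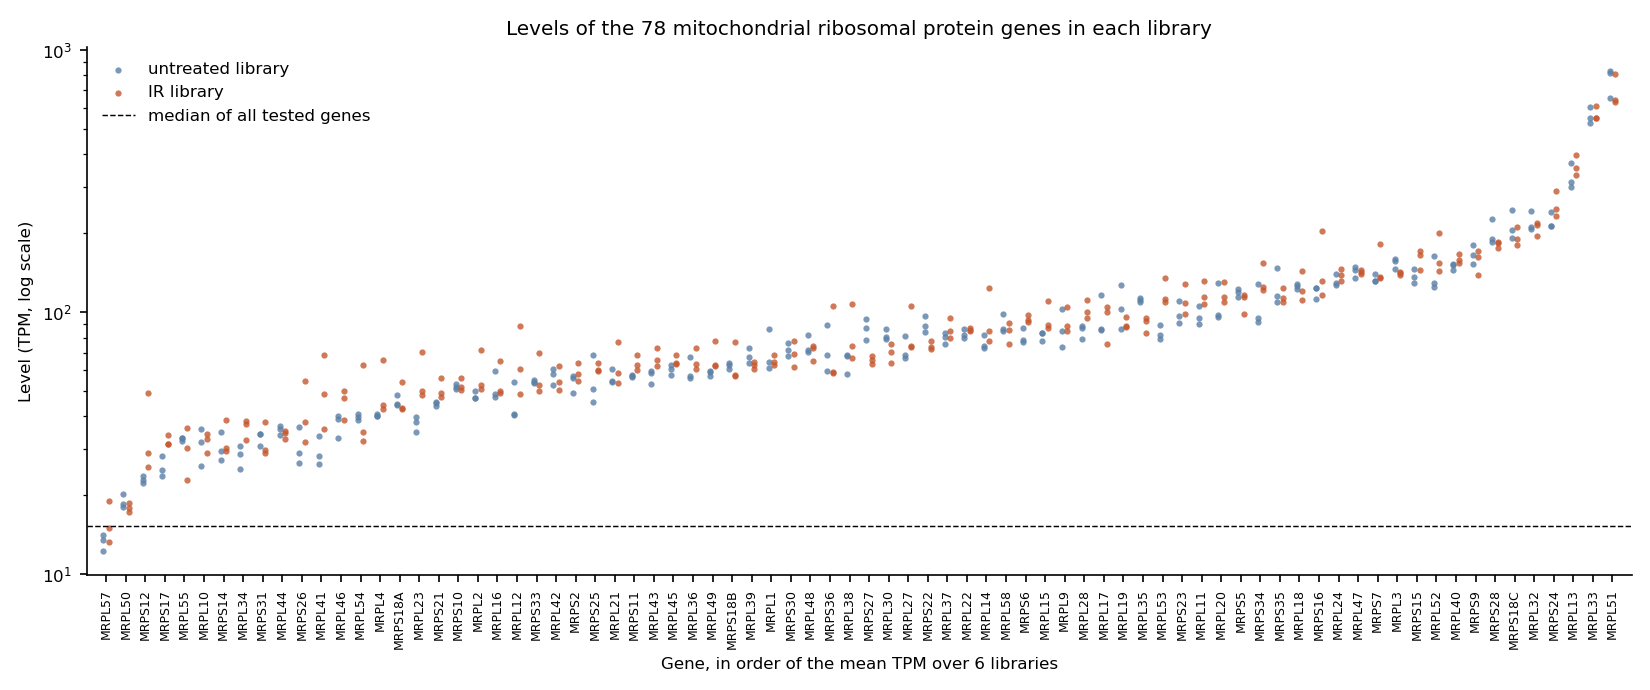
Level of each gene in TPM on a log scale, in order of the mean over the 6 libraries, with blue points for the 3 untreated and red points for the 3 IR libraries and a dashed line at the median of all tested genes (15.3 TPM). Most genes crowd around 75 TPM, 3 large subunit genes (MRPL13, MRPL33 and MRPL51) stand above the rest, and the highest red point of a gene is often that of IR replicate 3.

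At the top of the order was MRPL51, a mitochondria-specific protein of the large subunit, with 830, 816 and 656 TPM in the untreated and 644, 631 and 807 TPM in the IR libraries. MRPL33, a small protein with a bacterial homologue, followed with 549, 527 and 606 TPM untreated and 548, 550 and 610 TPM after IR. MRPL13, a conserved protein of the large subunit, had 327 ± 36.7 TPM untreated and 362 ± 33.0 TPM after IR (SD, n = 3 each), with 398 TPM as its highest value. The ranges of the 3 genes did not overlap with each other, and within each gene the untreated and IR libraries overlapped. Exons of MRPL33 overlap on the same strand with those of BABAM2, and how reads were divided between them is uncertain.

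The lowest 3 were MRPL57, MRPL50 and MRPS12. MRPL57, a mitochondria-specific protein, had 12.3, 14.1 and 13.6 TPM in the untreated and 15.0, 13.3 and 19.0 TPM in the IR libraries. MRPL50, also mitochondria-specific, had 18.5, 20.3 and 18.1 TPM untreated and 18.7, 17.3 and 17.9 TPM after IR. MRPS12, the protein of the decoding centre of the small subunit, had 23.0, 22.3 and 23.7 TPM untreated and 28.9, 25.6 and 49.1 TPM after IR, and was the only one of the 6 whose groups did not overlap on this scale.

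Added up, the 78 genes made 7671, 7573 and 8098 TPM in the untreated and 7777, 7686 and 8879 TPM in the IR libraries, so that the groups overlapped (mean 7781 ± 279 against 8114 ± 664, SD, n = 3 each). Of the 78 genes, 49 had their highest TPM in IR replicate 3, against 32 on the CPM scale, and without that library the summed IR values lay within the untreated range. In CPM the sums were 4472, 4398 and 4678 untreated and 4721, 4910 and 4918 after IR, with all 3 IR libraries above all untreated ones and a ratio of the means of 1.07. The genes held 0.446%, 0.437% and 0.471% of the matched counts of the untreated libraries and 0.475%, 0.482% and 0.498% of those of the IR libraries. The balance of the subunits was nearly level: the summed TPM of large over small subunit genes was 2.22, 2.26 and 2.10 untreated and 2.16, 2.13 and 2.22 after IR.

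The genes also share features of their position. A protein-coding gene on the other strand starts within 1000 bases upstream of the start of 17 of the 78 (21.8%), against 8.54% of all 20033 protein-coding genes. MRPL46 and MRPS11, a large and a small subunit gene, start 63 bases apart and share such a start with each other, MRPL36 and MRPL47 stand beside the complex I genes NDUFS6 and NDUFB5, and MRPS12 stands beside SARS2, the mitochondrial seryl-tRNA synthetase. Exons were shared with a protein-coding gene on the opposite strand for 20 of the 78 (25.6%, against 18% of all) and on the same strand for 13 (16.7%, against 12.9%). In addition, 36 members have a processed or other pseudogene named after them in the annotation (79 in all), none of which was among the quantified genes, so that reads from them could have been assigned to the members.

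Promoter windows of 300 bases (250 before and 50 after the annotated start, RefSeq, GRCh38.p14) were at hand for 69 of the 78 genes, with 85 windows in all, and were searched on both strands for 6 motifs, none of which contains another. The set is shown because factors of nuclear genes for mitochondria, among them the ETS factor GABP, NRF1 and YY1, are known to bind such promoters. AAGATGGC, the core of the YY1 motif, was in 23 of the 85 windows (27.1%), against 3.53% of the 22198 windows of protein-coding genes. In 16 windows, of 16 genes, it lay on the strand of the gene between 6 and 35 bases after the start (18.8%, where 1.82% of all protein-coding windows hold it after the start on that strand). CCGGAAGT, the ETS motif, was in 16.5% of windows against 5.33%, and GCGCATGC, the NRF1 motif, in 7.06% against 3.74%. The motif of NF-Y (CCAAT) was in 32.9% against 34.7%, that of the SP1 family (GGGCGG) in 60% against 56.3%, and the E-box CACGTG in 10.6% against 8.34%. No motif was in 14 windows, and the median GC content was 60.3% against 62.3%. These are matches of letters and show no binding.

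The windows of 3 genes described here are printed 5′ to 3′ on the strand of the gene, with the motifs found in capitals. That of MRPL53 (chromosome 2, 74472631 to 74472930, minus strand) holds an ETS motif 72 bases before the start and an SP1 motif after it. That of MRPL51 (chromosome 12, 6493213 to 6493512, minus strand) holds an ETS motif on the other strand, a pair of SP1 motifs and a YY1 motif 21 bases after the start. That of MRPS18B (chromosome 6, 30617590 to 30617889, plus strand) holds an NRF1 motif on the other strand, 23 bases before the start, and a YY1 motif 23 bases after it.
MRPL53: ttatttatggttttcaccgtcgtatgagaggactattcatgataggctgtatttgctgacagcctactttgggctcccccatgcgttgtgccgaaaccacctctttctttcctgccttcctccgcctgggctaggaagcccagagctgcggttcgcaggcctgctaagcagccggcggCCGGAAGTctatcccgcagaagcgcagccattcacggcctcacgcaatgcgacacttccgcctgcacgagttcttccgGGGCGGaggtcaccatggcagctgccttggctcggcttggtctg
MRPL51: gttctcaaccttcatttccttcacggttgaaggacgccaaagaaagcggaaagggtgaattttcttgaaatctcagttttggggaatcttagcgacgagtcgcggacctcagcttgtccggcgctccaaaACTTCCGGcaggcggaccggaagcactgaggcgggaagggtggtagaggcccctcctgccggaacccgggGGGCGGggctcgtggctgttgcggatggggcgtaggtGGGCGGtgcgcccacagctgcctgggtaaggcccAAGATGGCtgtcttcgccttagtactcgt
MRPS18B: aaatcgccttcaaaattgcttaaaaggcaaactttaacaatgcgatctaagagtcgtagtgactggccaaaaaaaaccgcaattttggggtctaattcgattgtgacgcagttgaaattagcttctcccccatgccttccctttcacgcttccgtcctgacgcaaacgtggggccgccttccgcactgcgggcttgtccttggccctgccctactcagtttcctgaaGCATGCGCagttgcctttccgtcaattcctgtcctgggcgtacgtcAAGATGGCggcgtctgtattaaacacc

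After IR, 15 of the 78 genes rose and none fell at an adjusted p under 0.05 (edgeR's quasi-likelihood test, adjusted over all 14323 tested genes). That is 19.2%, where 15.5% of all tested genes were higher and 14.5% lower, so that the share of higher genes lay near the background and that of lower genes below it. At an unadjusted p under 0.05, 26 members were higher and 2 lower, where 3164 and 2859 of the 14323 tested genes were. A DESeq2 Wald test gave 17 members higher and 1 lower, where 14.9% and 14.6% of all tested genes were. The changes were small: the median log2 fold change was 0.11, against 0.01 over all tested genes. Of the 78 values, 59 were positive, against 7354 of 14323 over all tested genes, and 2 of the 15 called members exceeded 0.5. In 27 members all IR libraries lay above all untreated ones (34.6%, background 23.8%), and in 2 all lay below (2.56%, background 23.3%). The count depended on single libraries. It was 4 without untreated replicate 1 (background 8.91%), 4 without untreated replicate 2 (9.35%) and 8 without IR replicate 2 (11.1%), and 13 without the deep IR replicate 3 (12.4%). MRPL41, MRPL23 and MRPL53 were called in all 6 fits that left out 1 library.

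**Figure D2:**
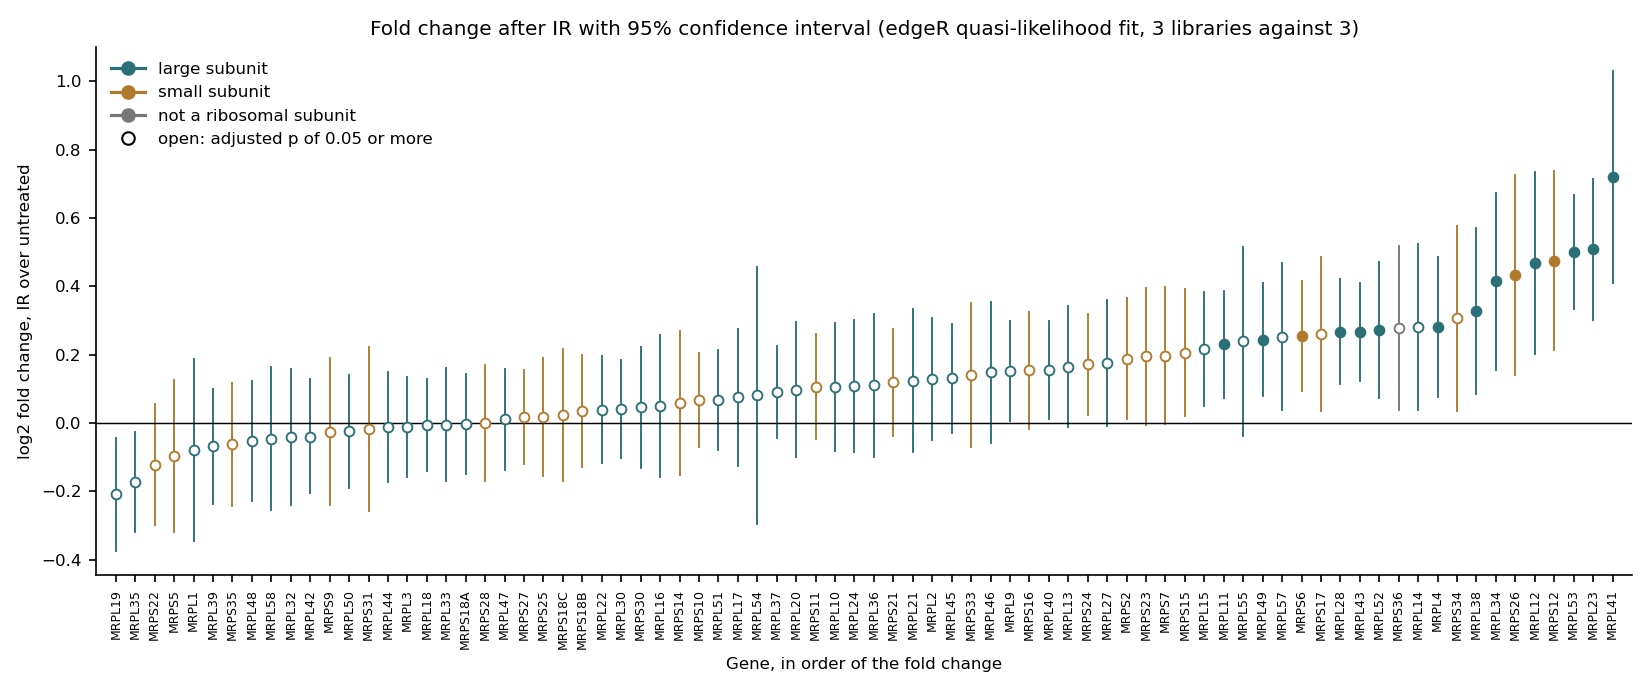
Log2 fold change of each gene after IR with its 95% confidence interval, in order of the fold change, coloured by subunit, with filled points for the 15 genes at an adjusted p under 0.05 and open points for the other 63. The filled points lie between 0.23 and 0.72 and belong to both subunits, and the intervals of the genes on the left reach or come near 0.

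The gene with the largest change was MRPL41, a mitochondria-specific protein of the large subunit that has also been linked to p53 and apoptosis. MRPL41 (chromosome 9, 137551879 to 137552555, plus strand, GRCh38) had 11.97, 12.9 and 14.7 CPM in the untreated and 21.7, 17.4 and 25.6 CPM in the IR libraries. The groups did not overlap, although the IR libraries differed among themselves by more than the untreated ones. Its log2 fold change was 0.72 (standard error 0.14, adjusted p = 0.00484 by edgeR), which is 1.65-fold. With 3 libraries against 3, the exact permutation test over libraries cannot give a two-sided p below 0.1, and it gave that value for every gene whose groups did not overlap.

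MRPL23, a conserved protein at the exit of the tunnel through which the new peptide leaves, followed. MRPL23 (chromosome 11, 1947278 to 1984522, plus strand) rose from 18.6, 17.1 and 17.7 CPM to 23.3, 24.3 and 28.0 CPM (log2 fold change 0.51, standard error 0.09, adjusted p = 0.00363 by edgeR). With protein-coding transcripts only, the log2 fold change of MRPL23 was 0.15 and the call was lost (adjusted p = 0.503 by edgeR). It was the 1 called gene among the 8 at the tunnel exit (12.5%, background 15.5%), whose median log2 fold change was 0.06. MRPL45, which anchors the ribosome to the inner membrane there, had 62.7, 58.7 and 67.2 CPM untreated and 67.9, 71.7 and 66.9 CPM after IR, with overlapping groups and no call (log2 fold change 0.13, adjusted p = 0.196 by edgeR).

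Of the 5 genes at the stalk of the large subunit, where translation factors dock, 3 rose, where 15.5% of all tested genes did and 31.6% of those in the GC range of the GC-richest members (the median GC content at this site was 56.9%). The site was not tested against other sites. With each library's trend against GC content removed, 1 of the 5 was called, and with an offset for the effective transcript lengths in each library (the length offset), 1 was. MRPL53, a mitochondria-specific protein at its base (chromosome 2, 74471982 to 74472687, minus strand), had the lowest p of all members, with 22.8, 22.4 and 24.4 CPM untreated and 31.4, 33.4 and 33.6 CPM after IR (log2 fold change 0.50, standard error 0.08, adjusted p = 0.00157 by edgeR). Exons of MRPL53 overlap with those of CCDC142 on the same strand, and how reads were divided between them is uncertain. MRPL12, the stalk protein that is also known to bind the mitochondrial RNA polymerase (chromosome 17, 81703367 to 81707517, plus strand), had 40.6, 40.3 and 49.99 CPM untreated and 58.8, 51.6 and 69.9 CPM after IR (log2 fold change 0.47, standard error 0.12, adjusted p = 0.016 by edgeR). Exons of MRPL12 overlap on the same strand with those of a protein-coding gene without a symbol. The gap between its groups was narrow, from 49.99 CPM in untreated replicate 3 to 51.6 CPM in IR replicate 2, and the call was lost without untreated replicate 1 (adjusted p = 0.0647 by edgeR), without untreated replicate 2 (0.0672) and with the length offset (0.0677). MRPL11 was the third (log2 fold change 0.23, adjusted p = 0.0333), and MRPL10 and MRPL54 were not called.

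In the small subunit, 3 of 26 genes rose (11.5%), with a median log2 fold change of 0.11 over the 26, as in the large subunit with 12 of 51 (23.5%) and 0.11. Among all tested genes, 15.5% were higher. With each library's trend against GC content removed, 3 of the 26 small and 6 of the 51 large subunit genes were called higher, where 11.6% of all tested genes were. The median GC content was 48.1% in the small and 50.5% in the large subunit genes. The difference between the subunits was not tested. MRPS12, the decoding centre protein (chromosome 19, 38930944 to 38933168, plus strand), had 24.2, 23.7 and 24.0 CPM in the untreated and 29.4, 29.7 and 40.1 CPM in the IR libraries (log2 fold change 0.48, standard error 0.12, adjusted p = 0.0141 by edgeR). The groups were apart, and the IR mean was raised by IR replicate 3. Without that library its log2 fold change was 0.29 (adjusted p = 0.0133), and its call was lost without untreated replicate 2 (adjusted p = 0.0503 by edgeR) and with the length offset (0.0634). The other genes of this site, MRPS5 and MRPS24, were not called.

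**Figure D3:**
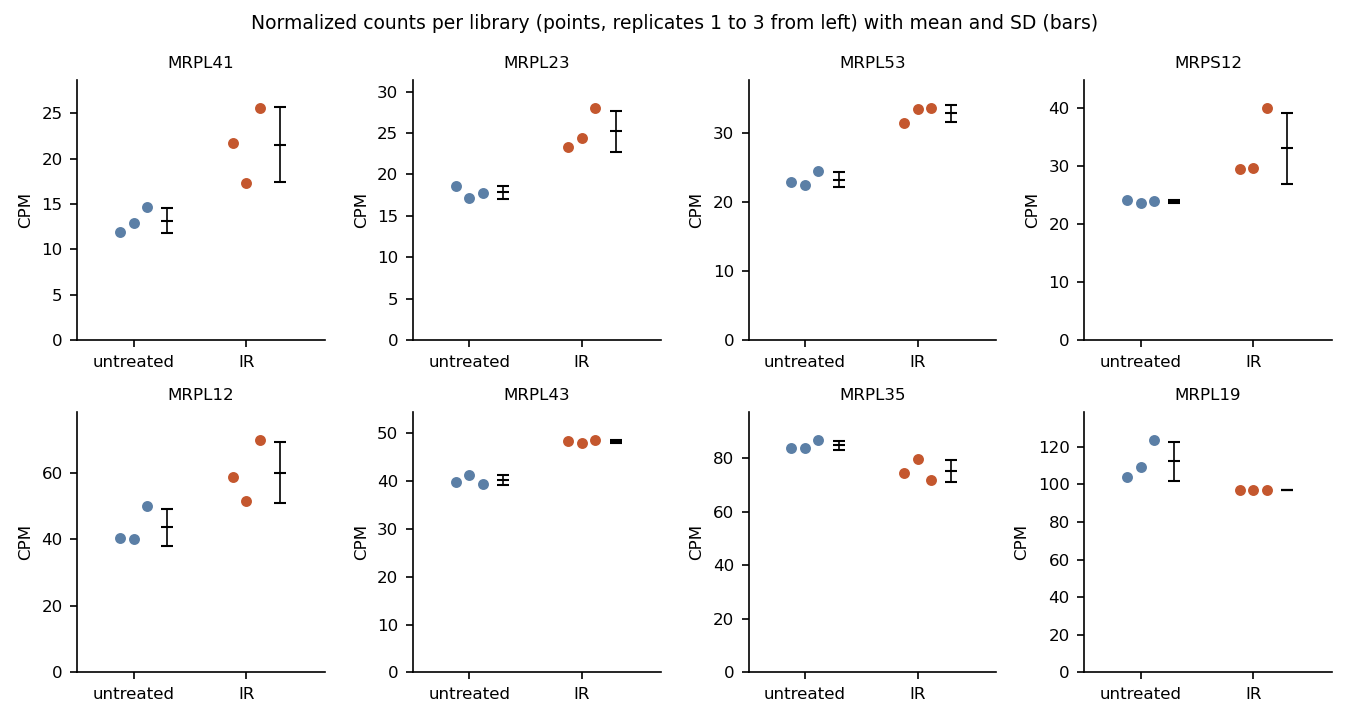
Normalized counts (CPM, axes from 0) of 8 genes in each library, with untreated in blue and IR in red, and the mean with SD (n = 3) as bars to the right of each group. MRPL41, MRPL23, MRPL53, MRPS12, MRPL12 and MRPL43 have all IR points above all untreated points, and MRPL35 and MRPL19 have all of them below without a call by edgeR.

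MRPL43, a mitochondria-specific protein of the large subunit, was among the 5 called genes of lowest p and had close values within its groups, with 39.8, 41.3 and 39.3 CPM untreated and 48.4, 47.9 and 48.6 CPM after IR (log2 fold change 0.27, standard error 0.06, adjusted p = 0.0123 by edgeR). The call of MRPL43 was lost without untreated replicate 1 (adjusted p = 0.0587 by edgeR), with the length offset (0.0978) and with protein-coding transcripts only (0.192). Its exons overlap on the opposite strand with those of TWNK, the mitochondrial DNA helicase, and of SEMA4G. The remaining called genes, named here after their values were seen, were MRPS26, MRPL34, MRPL38, MRPL4, MRPL52, MRPL28, MRPS6, MRPL49 and MRPL11. Their log2 fold changes ran from 0.23 for MRPL11 to 0.43 for MRPS26, with adjusted p-values of 0.017 for MRPL28 to 0.045 for MRPL38 by edgeR. By class, 8 of the 46 genes with a bacterial homologue (17.4%) and 7 of the 31 mitochondria-specific genes (22.6%) were called, where 15.5% of all tested genes were higher. With the GC trend removed, 6 of the 46 and 3 of the 31 were called higher, where 11.6% of all tested genes were. The difference between the classes was not tested.

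At the other end, the lowest values were not called. MRPL19, a conserved large subunit protein (chromosome 2, 75646783 to 75690851, plus strand), had 104, 109 and 124 CPM in the untreated and 97.0, 97.2 and 97.1 CPM in the IR libraries (log2 fold change -0.21, standard error 0.07, adjusted p = 0.0566 by edgeR). MRPL35, also conserved (chromosome 2, 86199355 to 86213790, plus strand), had 84.0, 83.9 and 86.8 CPM untreated and 74.5, 79.9 and 71.8 CPM after IR (log2 fold change -0.17, adjusted p = 0.0725 by edgeR). In both genes all IR libraries lay below all untreated ones. The DESeq2 Wald test (adjusted p = 0.0373) and edgeR's likelihood ratio test (0.0439) called MRPL19 lower. MRPS22, a mitochondria-specific protein of the small subunit, MRPS5 at the mRNA channel and MRPL1 of the L1 stalk had log2 fold changes of -0.12, -0.10 and -0.08 with overlapping groups, and the values of MRPS5 and MRPL1 were positive without IR replicate 3 (0.01) and without untreated replicate 3 (0.07), respectively.

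The 3 MRPS18 genes code for paralogues that occupy different places, MRPS18A in the large subunit and MRPS18B and MRPS18C in the small one. On the TPM scale MRPS18C was the highest, with 213 ± 27.4 TPM untreated and 193 ± 15.5 TPM after IR (SD, n = 3 each). MRPS18B had 62.5 ± 1.68 and 63.7 ± 11.2 TPM, and MRPS18A had 45.8 ± 2.28 and 46.8 ± 6.52 TPM. The ranges of the 3 genes did not overlap. None was called after IR: in CPM, the log2 fold changes of MRPS18A, MRPS18B and MRPS18C were 0.00 (95% confidence interval -0.15 to 0.14), 0.04 (-0.13 to 0.20) and 0.02 (-0.17 to 0.22), and the sign of each changed under some of the alternatives.

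Other members of known special roles were not called either. MRPS30, a mitochondria-specific protein of the large subunit, had a log2 fold change of 0.05 (95% confidence interval -0.13 to 0.22). MRPL58, also known as ICT1, a release factor-like protein that frees peptides from stalled ribosomes, had one of -0.05 (-0.26 to 0.16). MRPS36 had 21.3, 19.4 and 23.7 CPM untreated and 23.2, 25.2 and 29.2 CPM after IR, with overlapping groups and a log2 fold change of 0.28 (adjusted p = 0.0773 by edgeR). MRPL57, the lowest gene, had 0.25 (adjusted p = 0.0728 by edgeR).

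The fold changes of the members followed the GC content of their transcripts, as those of all genes did. Across the 78 genes, which share the same libraries and are not independent replicates, Pearson's r was 0.72 and Spearman's rho 0.69, against 0.44 and 0.50 across all 14323 tested genes. Of the 26 members of highest GC content (53.9% to 66.7%), 13 rose, of the middle 26 (45.2% to 53.6%) 2, and of the lowest 26 (35.0% to 45.2%) none. The same ranges over all tested genes held 31.6%, 10.3% and 4.81% higher genes and 2.81%, 13.2% and 26.3% lower genes. The median log2 fold changes of the members in the 3 ranges were 0.27, 0.12 and -0.01, each above that of all genes in the range (0.21, -0.01 and -0.14).

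**Figure D4:**
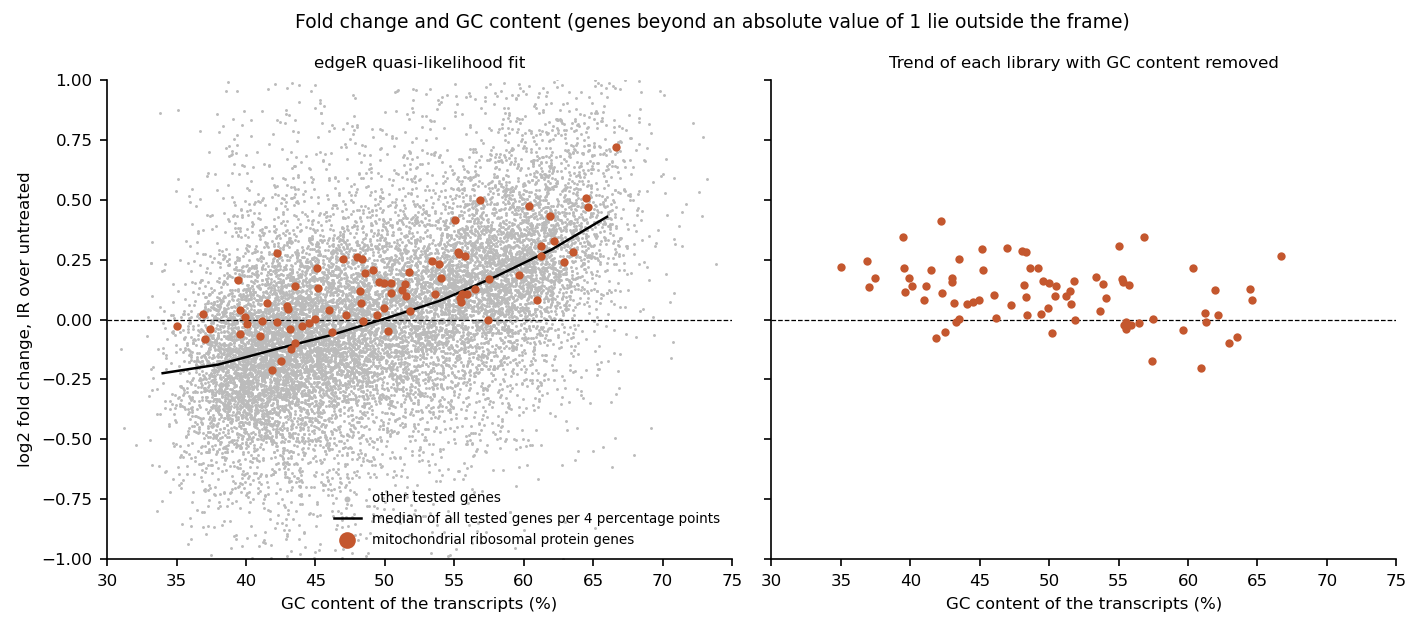
Log2 fold change after IR against the GC content of the transcripts in percent, in the edgeR fit (left) and after removal of each library's GC trend (right), with the 78 genes in red, other tested genes in grey and the median of all tested genes as a line. On the left the red points rise with GC content and lie mostly above the line, and on the right they tend to fall with it (Pearson's r -0.335).

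When each library's trend with GC content was removed, 10 members were higher and none lower, where 11.6% of all genes were higher and 12.6% lower, and the median of the members was 0.11, against 0.00 over all genes. The genes behind that count were mostly others: 2 of the 15, MRPL53 (log2 fold change 0.35, adjusted p = 0.00722 by edgeR) and MRPS6 (0.30, adjusted p = 0.00768 by edgeR), were called in both fits. Without this removal, MRPS6 was called in 2 of the 6 fits that left out 1 library. Its call was lost with the length offset (adjusted p = 0.0971 by edgeR). Exons of MRPS6 overlap on the same strand with those of SLC5A3, and how reads were divided between them is uncertain. With the GC trend removed, MRPL41 (0.27, adjusted p = 0.0999), MRPL23 (0.13, 0.237), MRPS12 (0.21, 0.0903), MRPL12 (0.08, 0.587) and MRPL43 (0.14, 0.104) were no longer called, and MRPL28 and MRPL4 turned to -0.01 and -0.07. The other 8 were GC-poor or of middle GC content, among them MRPL13 (0.34, adjusted p = 0.0127), MRPL45 (0.21, 0.0368), MRPL50 (0.22, 0.0451) and MRPS36 (0.41, 0.0254). Of the 26 members of lowest GC content, 23 had a positive value in this fit and 6 were called higher. Of the 5135 tested genes in the same GC range, 2603 had a positive value and 670 were called higher. Across the members, Pearson's r with GC content was -0.335 in this fit and Spearman's rho -0.346. Across all tested genes, Pearson's r was -0.001. Whether the trend that was removed comes from the libraries or from the cells was not tested.

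The length offset also ended calls. With an offset for the effective length that kallisto gave each transcript in each library, 3 members (MRPL41, MRPL23 and MRPL53) were higher and none lower, against 5.82% and 6.11% of all genes, and the median was 0.16. This effective length was greater than the length itself for 24.2% to 29.1% of transcripts, so that it is not a measure of length alone.

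The tables list 497 transcripts of the members, and 70 of the 78 genes have at least 2. The leading transcript, the one of highest mean TPM, was annotated as protein-coding for 61 genes and made over 50% of the gene's TPM in every library for 44. Usage of transcripts was tested by edgeR's diffSpliceDGE for 67 members, none of which was called, where 2.67% of the 10666 tested genes were, and 1 had an unadjusted p under 0.05. The lowest adjusted p was 0.317, for MRPL51. The shares of MRPL51 transcripts differed strongly within groups: its first protein-coding transcript held 60.7%, 57.2% and 0% of the gene's TPM in the untreated and 10.3%, 1.47% and 0% in the IR libraries. The TPM level of MRPL51 therefore rests on an assignment between its transcripts that was not stable between libraries. In CPM, which sums the counts of a gene's transcripts, MRPL51 was also the highest member. It had 216, 205 and 220 CPM untreated and 210, 229 and 232 CPM after IR, and the next, MRPS16, had 138 to 174 CPM. In untreated replicate 3, the leading transcripts of MRPL49 (46.9%, against 90.8% to 96.5% in the others) and of MRPS18B (73.3%, against 87.7% to 99.5%) also had lower shares than elsewhere.

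Next to the MRPL and MRPS genes, 5 mitoribosomal proteins carry other names. CHCHD1, a small subunit protein, rose from 33.0, 31.2 and 35.8 CPM to 36.5, 42.0 and 45.7 CPM (log2 fold change 0.32, standard error 0.10, adjusted p = 0.0311 by edgeR). Its call was lost with the length offset. PTCD3, a pentatricopeptide repeat protein of the small subunit, fell from 98.2, 89.1 and 97.3 CPM to 85.0, 79.8 and 83.6 CPM (log2 fold change -0.20, standard error 0.07, adjusted p = 0.0485 by edgeR), a call that was lost with the GC trend removed (adjusted p = 0.588). DAP3, AURKAIP1 and GADD45GIP1 were not called, with log2 fold changes of 0.13, 0.27 and 0.12.

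Genes that build and serve the mitoribosome were compared with the 15.5% higher and 14.5% lower among all tested genes. Of 26 genes for its assembly and rRNA modification, 4 rose (15.4%) and none fell, with a median log2 fold change of 0.04. MRM1, which methylates the large ribosomal RNA, changed by 0.44 (standard error 0.08, adjusted p = 0.00398), the GTPase MTG1 by 0.40 (0.09, 0.00908) and the GTPase GTPBP6 by 0.35 (0.10, 0.0249), all by edgeR. The fourth, METTL17, outside the rule for named genes, had 0.19 (adjusted p = 0.0418). All 4 calls were lost with the GC trend removed, with adjusted p-values of 0.0557 for METTL17 to 0.631 for GTPBP6. Of 18 translation factors, none rose and 1 fell (5.56%), MTRFR, a factor that rescues stalled ribosomes (log2 fold change -0.31, standard error 0.10, adjusted p = 0.0368 by edgeR). The call of MTRFR was lost with the length offset. Of 20 mitochondrial aminoacyl-tRNA synthetases, 2 rose (10%), CARS2 (0.54, standard error 0.08, adjusted p = 0.00118) and FARS2 (0.42, standard error 0.12, adjusted p = 0.024). With the length offset, 1 of the 20 was called higher. Of 10 genes of mitochondrial transcription and RNA processing, POLRMT, the RNA polymerase, rose (0.37, adjusted p = 0.0379) and TFAM, which packages and activates mitochondrial DNA, fell (-0.24, adjusted p = 0.0347), and both calls were lost with the GC trend removed (adjusted p = 0.885 and 0.472).

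Among 8 regulators of mitochondrial biogenesis, 4 fell and 1 rose (50% and 12.5%, where 14.5% and 15.5% of all tested genes did), among them factors whose motifs were counted above. GABPA, the DNA-binding subunit of GABP, had 57.7, 57.2 and 61.2 CPM in the untreated and 41.5, 34.9 and 34.2 CPM in the IR libraries (log2 fold change -0.67, standard error 0.09, adjusted p = 0.000789 by edgeR). GABPB1, its partner subunit, had 38.3, 36.5 and 37.3 CPM untreated and 28.2, 27.6 and 24.3 CPM after IR (log2 fold change -0.49, standard error 0.08, adjusted p = 0.00227 by edgeR). YY1 had 126, 124 and 129 CPM untreated and 107, 105 and 102 CPM after IR (log2 fold change -0.28, standard error 0.06, adjusted p = 0.00831 by edgeR). The groups of all 3 genes were apart, and the 3 calls held with the GC trend removed (log2 fold changes -0.46, -0.36 and -0.16) and with each library left out. PPARGC1B, a coactivator and the fourth gene that fell, outside the rule for named genes, had a log2 fold change of -0.35 (adjusted p = 0.0398 by edgeR), and NRF1, also outside the rule, had -0.12 with overlapping groups (adjusted p = 0.349). ESRRA, the receptor ERR alpha, rose (log2 fold change 0.56, adjusted p = 0.0107 by edgeR), a call that was lost with the GC trend removed (0.18, adjusted p = 0.178).

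The 13 mRNAs encoded by mitochondrial DNA, the templates of the mitoribosome, were not called by edgeR (none at an unadjusted p under 0.05 either), with log2 fold changes from -0.18 for MT-ND4L to 0.25 for MT-ND1 and a median of 0.07. With the GC trend removed, 1 was called higher (11.6% of all tested genes were), and these mRNAs had a median of 0.15. Their summed level was 183500, 189900 and 149100 TPM in the untreated and 184400, 207300 and 129000 TPM in the IR libraries, so that the spread within each group exceeded the difference of the means (174200 and 173600 TPM). The subunits of oxidative phosphorylation encoded in the nucleus had 25 higher and 1 lower (NDUFS1, a complex I subunit, -0.23) of 78 tested (32.1% higher, median 0.18), and cytosolic ribosomal proteins 51 higher and none lower of 83 (61.4%, median 0.26). With the GC trend removed, these 2 lists had 30 and 45 higher genes and the mitochondrial ribosomal protein genes 10, where 11.6% of all tested genes were higher. With the length offset, the counts were 13, 11 and 3 in the same order, where 5.82% of all tested genes were higher. The differences between the lists were not tested. RPS27L, a cytosolic ribosomal protein gene known as a target of p53, had the largest change of these lists among the named genes, from 120, 117 and 128 CPM to 200, 207 and 232 CPM (log2 fold change 0.81, standard error 0.08, adjusted p = 0.000242 by edgeR).

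Of the 17 genes at the other side of a shared start, 3 were higher (NDUFS6, FAU and APBA3) and 1 lower (SKA3), beside 15.5% higher and 14.5% lower among all tested genes. MRPL49 and FAU, whose starts are 6 bases apart, were both called (log2 fold changes 0.24 and 0.32), whereas MRPL57 had 0.25 without a call beside SKA3 with -0.39, and MRPS12 rose by 0.48 beside SARS2 with 0.04 (adjusted p = 0.841 by edgeR).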

How the data were processed

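The 3 untreated and 3 IR libraries of U-2 OS cells (bulk RNA-seq) were grouped by the sample labels. The authors trimmed reads with fastp and assigned them with kallisto to GENCODE release 37 (GRCh38.p13), per the paper, and the submitters' processing notes also name kallisto and GRCh38. Versions are not given in the sources used here. Estimated counts were deposited without normalization. TPM values, scaled by kallisto in the hands of the authors to effective length and library size, stand beside them. The deposited files also give the length and effective length of each transcript. Poly(A) RNA and an mRNA kit are named by the labels, whereas the paper names a total RNA kit, and which applies is unsure. IR replicate 3 has a file name with a mark not seen in the others, possibly for a repeat.

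By their identifiers, transcripts were matched to GENCODE release 44 (158711 matched, 2460 did not, with 1.54% to 1.80% of the counts), summed per gene and rounded. Genes kept by filterByExpr were scaled by TMM and tested with glmQLFit and glmQLFTest (edgeR 4.0.16, limma 3.58.1, R 4.3.3). P-values were adjusted by Benjamini–Hochberg with a threshold of 0.05. The biological coefficient of variation was 0.0931. Confidence intervals are at 95%. The exact permutation test over libraries used log2(CPM + 0.5). GC content and length of a gene are means over its transcripts weighted by TPM. The GC trend of each library was fitted by loess with a span of 0.5. No sequence or value of the scRNA-seq or imaging of the study was analysed here. Scripts were tested on simulated counts, where changes of transcript usage with the spread of these libraries were often missed. Replicates of a group differed by more than sampling noise (chi-square per gene of at least 3.46), so that none was counted as a copy. Intervals cover the spread between libraries, and depth was at least 18573309 estimated counts.

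Alternatives were no filter on low counts, at least 10 counts in every library, DESeq2's size factors and Wald test (version 1.42.0), a likelihood ratio test in edgeR, removal of the GC trend, a replicate block (alone and with that removal), an effective length offset, protein-coding transcripts only, and leaving out each library. Members, lists, motifs and tests were chosen with earlier results of these data known. Named members were the 5 highest and 5 lowest fold changes, the 5 called genes of lowest p in each direction, the 3 highest and 3 lowest TPM, and MRPS18A, MRPS18B, MRPS18C, MRPS30, MRPL12, MRPL41, MRPL45, MRPL58 and MRPS36 for their roles, and in each list up to 3 called genes of lowest p in each direction and all 5 mitoribosomal proteins with other names. Other called members, markers, METTL17, PPARGC1B, NRF1, members beside another gene's start and members called with the GC trend removed were named after their values were seen. Promoter windows are those of a RefSeq table, which was matched by symbol.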

Additional observations from a re-analysis of the deposited data

How the results depend on the processing

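The count of 15 higher members changed with the setting, and so did the share of all tested genes that were higher (15.5%), given in brackets. It was 10 with the replicate block in edgeR (12.1%), 10 with the GC trend removed (11.6%) and 6 with both (10.2%). With the effective length offset it was 3 (5.82%), and with protein-coding transcripts only 10 (9.45%). Under the other filters, scalings and tests it lay between 15 and 17 (11.7% to 17%). When 1 library was left out, it ranged from 4 to 16 (8.91% to 14.6%). No member was lower, apart from 1 each with the DESeq2 Wald test and the likelihood ratio test. The median log2 fold change of 0.11 stayed between 0.08 and 0.13, apart from 0.16 with the length offset. No member was called for transcript usage under the filter, the block or protein-coding transcripts only, and between 0 and 2 were called when 1 library was left out. The cause of these differences was not tested. Same-numbered libraries did not deviate together (correlations of -0.02, 0.01 and -0.05, none of them matching its own number best), and no label says that a number marks a shared batch, so that the block fit stands for a shared number only.

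Of 512 fold changes of named members under alternatives, 381 kept direction and call, 87 kept the direction and lost the call, 9 gained a call and 35 changed sign. With the GC trend removed, without and with the replicate block, signs changed for MRPL1 (0.13 and 0.14), MRPL50 (0.22 and 0.23), MRPL33 (0.14 and 0.14), MRPS18B (-0.002 and -0.006), MRPL28 (-0.011 and -0.011) and MRPL4 (-0.071 and -0.072), and without the block for MRPS5 (0.002). With the length offset they changed for MRPL33 (0.069), MRPL51 (-0.10), MRPS18A (0.077) and MRPS18C (-0.089), and with protein-coding transcripts only for MRPS5 (0.03), MRPL13 (-0.01), MRPL33 (0.047) and MRPL58 (0.078). Leaving out 1 library gave ranges across 0 for MRPL1 (-0.16 to 0.069), MRPS5 (-0.19 to 0.010), MRPL50 (-0.064 to 0.016), MRPL33 (-0.053 to 0.053), MRPS18A (-0.026 to 0.022), MRPS18B (-0.037 to 0.080), MRPS18C (-0.031 to 0.10), MRPS30 (-0.016 to 0.099) and MRPL58 (-0.098 to 0.060).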
